A study of Mus musculus with 9 samples.

Results

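The genes described here are 10 targets of the transcription factor p53 that act in cell cycle arrest, in feedback on p53 and in the stress response, namely Cdkn1a, Mdm2, Ccng1, Phlda3, Zmat3, Zfp365, Sesn2, Eda2r, Trp53inp1 and Aen. They were chosen by name as known p53 targets, with their values at 1 dpi against Ctrl on these arrays in view. The values at 1 dpi are therefore given as a description, with no p-value for a member and nothing read from the count of calls. The rule had no threshold. The members are 10 of 37316 genes named on the array. All 10 were among the 29410 genes that passed the filter on dim probes, which kept a probe if the scanner software marked it well above background on each of the 3 arrays in 1 or more groups. Eda2r passed only through its irradiated groups, so a difference from Ctrl was built into its passing.

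Gene expression was measured in mature megakaryocytes (mMKs), the large polyploid cells of the bone marrow that shed platelets, to follow their response to ionizing radiation (IR). The mice were male, and the methods give wild-type animals of the study as C57BL/6, with no age given for them in the sources used here. The groups were sham-irradiated mice (Ctrl) and mice at 1 or 3 days after a single total body dose of 5 Gy of γ-rays (1 dpi and 3 dpi), with 3 arrays per group and 9 in all, from independent experiments with different donors. The mMKs were enriched from femur and tibia marrow by positive selection on CD41 and then on CD42d, so each array is a bulk sample of an enriched and not a pure population. The files are Agilent 1-colour arrays, while the methods describe another platform.

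Each array held 56605 probes, and none of the spots was saturated. The share of probe spots well above background was 69.1%, 79.5% and 80.8% in the Ctrl arrays, 72.3%, 74.8% and 75.6% at 1 dpi, and 81.8%, 81.6% and 81.8% at 3 dpi. All values below are log2 signals minus the 75th percentile of their own array (scaled log2 signal), so that a member at 0 is as bright as that percentile and a difference of 1 is a doubling. That percentile lay lower at 1 dpi, at 9.33 to 9.45 on the log2 scale, than in Ctrl, at 10.03 to 10.66, or at 3 dpi, at 10.37 to 10.55. After this scaling the median of all 44300 probes tested was shifted by 0.22 at 1 dpi against Ctrl, by 0.07 at 3 dpi against Ctrl and by -0.13 at 3 dpi against 1 dpi. Ctrl replicate 1 was alone on 1 slide and the other 8 arrays shared the other slide.

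The cell type label was checked with 15 megakaryocyte markers, including Pf4, Ppbp, Itga2b (CD41), Itgb3, Gp1ba, Gp5 (CD42d) and Gp9. All 15 were well above background on every array, Pf4 was the brightest, and the median scaled log2 signal of the list was 1.54, 1.48 and 1.43 in Ctrl, 2.04, 1.93 and 1.87 at 1 dpi and 2.28, 2.23 and 2.13 at 3 dpi. All 10 neutrophil markers were also well above background on every array, with a list median of 6.86 to 6.94 in Ctrl, 7.33 to 7.38 at 1 dpi and 6.89 to 7.05 at 3 dpi.

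In unstressed cells p53 is held low by MDM2, a ubiquitin ligase whose own gene is a p53 target, which closes a negative feedback loop. DNA breaks activate kinases such as ATM and CHK2, p53 escapes this control, and genes for arrest, repair, metabolic adaptation and death are transcribed, Cdkn1a first among the arrest genes. Megakaryocytes become polyploid by replicating DNA without dividing, and p53 has been described as a limit on this process.

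At 1 dpi all 10 members were brighter than in Ctrl on every array, by a log2 fold change of 0.80 for Trp53inp1 up to 5.54 for Zfp365, with a median of 2.78 on the brightest probe of each gene. At 3 dpi all 10 lay between Ctrl and 1 dpi on that probe under this scaling, by group means and on every single array. How many of all genes were so ordered, or brighter on every array at 1 dpi, was not counted. Nothing is read from these separations. The median at 3 dpi was 1.81 above Ctrl (lowest 0.29, Aen; highest 4.23, Phlda3) and 1.08 under 1 dpi on the log2 scale. Taken relative to the median of all probes, these medians were 2.55 at 1 dpi and 1.74 at 3 dpi against Ctrl, and the change from 1 to 3 dpi had a median of -0.95. With Eda2r at its lower bound, explained where that gene is described, the medians of the members were the same. Since its difference from Ctrl is known only as a bound, the highest values against Ctrl given here are those among the other members. Before scaling, the signal was lower at 3 dpi than at 1 dpi on every array for Cdkn1a, Zfp365 and Eda2r only. For Mdm2, Phlda3 and Sesn2 it overlapped between the times, and for Ccng1, Zmat3, Trp53inp1 and Aen it was higher at 3 dpi. The falls given here are thus relative to the 75th percentile, which was 642 to 699 at 1 dpi and 1320 to 1502 at 3 dpi in linear signal.

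**Figure D1:**
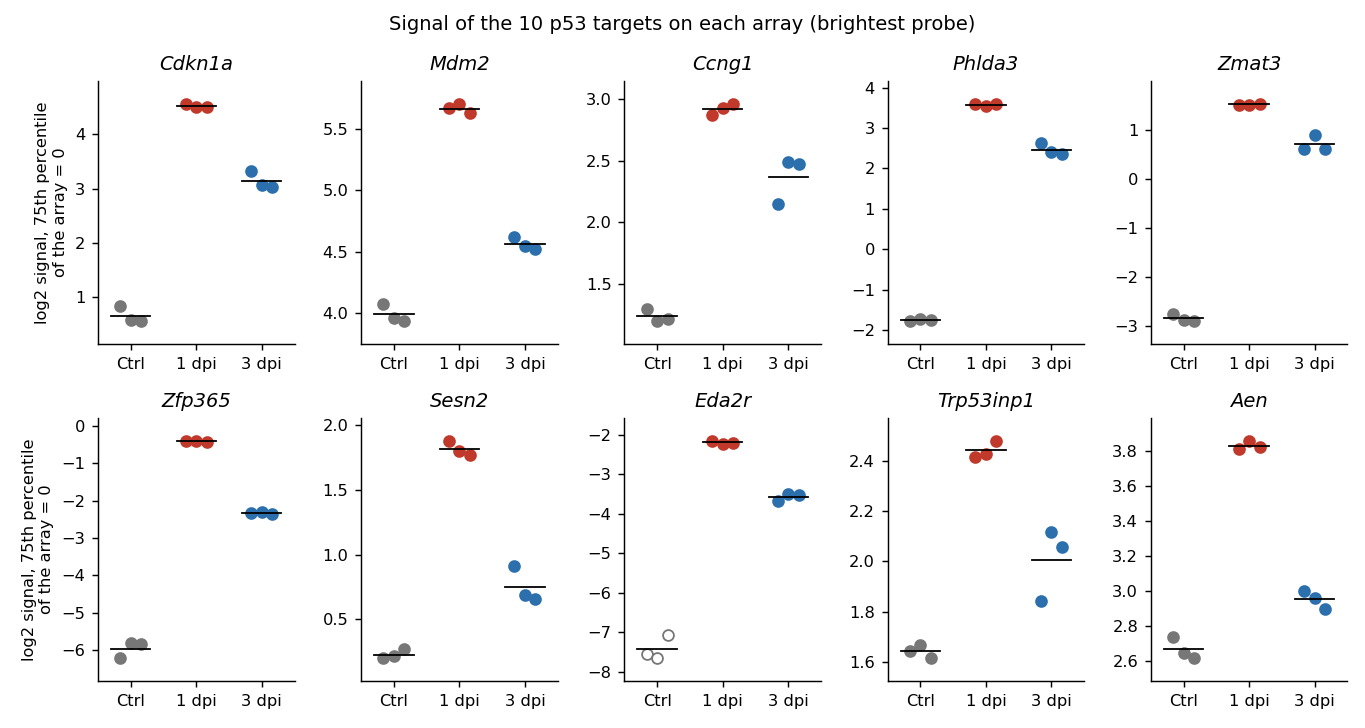
Scaled log2 signal of the brightest probe of each member (y axis, 75th percentile of the array = 0, a separate axis per gene) on the 3 arrays of Ctrl, 1 dpi and 3 dpi (x axis), with the group mean as a bar. Open circles are arrays on which the probe was not well above background (Eda2r in Ctrl), and in every panel the 3 dpi points lie between those of Ctrl and 1 dpi.

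A probe was called when its adjusted p was under 0.05 over all probes tested and its change was at least 2-fold. In the comparison of 1 dpi with Ctrl, which helped to choose the members, 9 of 10 members were called higher and 0 lower, beside 12.4% of all genes called higher and 2.88% called lower on their brightest probe. Nothing is read from that count. At 3 dpi against Ctrl, 6 of 10 members were called higher (Cdkn1a, Ccng1, Phlda3, Zmat3, Zfp365 and Eda2r) and 0 lower, beside 7.02% of all genes called higher and 1.82% called lower. The call of Eda2r is part built in, and of the other 9 members 5 were called. At 3 dpi against 1 dpi, 6 of 10 were called lower (Cdkn1a, Mdm2, Phlda3, Zfp365, Sesn2 and Eda2r) and 0 higher, beside 4.85% of all genes called lower and 4.02% called higher. Both comparisons share arrays with the one that chose the members, so they are not independent of that choice. The 4 members that were not called in each had an adjusted p under 0.05 and a change of less than 2-fold. Without a minimum fold, 14563 of all 44300 probes had such an adjusted p at 3 dpi against Ctrl and 20438 between the times. The smaller changes of these members depended on the scaling. After scaling to the array median the adjusted p at 3 dpi against Ctrl was 0.422 for Aen (0.16) and 0.228 for Trp53inp1 (0.24), and between the times 0.0972 for Ccng1 (-0.36) and 0.185 for Trp53inp1 (-0.25). In the deposited table it was 0.0853 for Aen at 3 dpi against Ctrl. Of the 19 member probes tested, 9 were called higher at 3 dpi against Ctrl, beside 6.58% of all probes, and 11 were called lower at 3 dpi against 1 dpi, beside 5.03%. At 1 dpi 11.6% of all probes were called higher.

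The balance of calls over all probes depended on the scaling. Higher calls made up 79.3% of all calls at 1 dpi against Ctrl, and 51.0% after quantile normalization or 45.2% after scaling to the array median. For 3 dpi against Ctrl the share was 78.0%, and 67.6% after quantile normalization. Between the times it was 42.7%, and 61.0% after quantile normalization or 66.3% after scaling to the array median. Of the 6 members called lower at 3 dpi against 1 dpi, Cdkn1a, Zfp365 and Eda2r were also called after scaling to the array median, while Mdm2 (-0.91), Phlda3 (-0.92) and Sesn2 (-0.87) then fell short of 2-fold. With quantile normalization 5 members were called, Mdm2 (-0.88) being the one lost, and with normexp and quantile normalization 4, Mdm2 (-0.86) and Eda2r (-0.88) being lost. No member changed direction in any comparison under any scaling.

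The promoters of 8 members were searched for the p53 half-site consensus of 10 bases, exact and on both strands. The window ran from 250 bases before to 50 bases after each annotated start (RefSeq, GRCm38.p6). A full site was taken as 2 half-sites at most 13 bases apart with no more than 2 mismatches in all and both 4-base cores exact. Zmat3 and Trp53inp1 were not in the table. An exact half-site was present in Cdkn1a, Mdm2, Ccng1 and Aen, against 9.55% of the 27025 genes and 8.36% of the 32851 promoters in the table. A full site was present in Cdkn1a and Zfp365, against 2.47% of all genes and 2.12% of all promoters. Both genes held 2 overlapping full sites. Cdkn1a has 2 annotated starts, and its matches lie before the upstream one only. Phlda3, Sesn2 and Eda2r held neither in this window. A match is a description of these letters and not a bound site. The members were chosen by name as known p53 targets, so nothing is read from their share of matches. The 4 stretches below lie wholly upstream of a start, and capitals mark the match. They are Cdkn1a at chr17:29090908-29090967 (plus strand, full site 51 to 32 bases before the start, 1 mismatch), Zfp365 at chr10:67912686-67912745 (minus strand, full site 63 to 44 bases before the start, 2 mismatches), Mdm2 at chr10:117710915-117710964 (minus strand, half-site 186 to 177 bases before the start) and Ccng1 at chr11:40755442-40755491 (minus strand, half-site 185 to 176 bases before the start). The 2 full sites show the match at the best known arrest target and at Zfp365, each by the site whose half-sites adjoin, and the 2 half-sites show it at the feedback genes. The other full site, with a spacer of 12 bases, had 0 mismatches in Cdkn1a and 2 in Zfp365.
Cdkn1a: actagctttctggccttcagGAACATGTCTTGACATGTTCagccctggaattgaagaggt
Zfp365: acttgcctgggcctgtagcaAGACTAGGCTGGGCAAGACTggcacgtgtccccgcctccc
Mdm2: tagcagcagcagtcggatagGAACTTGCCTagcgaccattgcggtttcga
Ccng1: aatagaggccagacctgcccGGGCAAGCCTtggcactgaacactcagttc

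Cdkn1a encodes p21, the inhibitor of cyclin-dependent kinases through which p53 stops the cell cycle. Its brightest probe (chr17:29237377-29237436, plus strand, mm9, starting at base 1619 of its transcript) had scaled log2 signals of 0.84, 0.58 and 0.56 in Ctrl, 4.56, 4.51 and 4.51 at 1 dpi and 3.32, 3.06 and 3.03 at 3 dpi. No group overlapped another, and the arrays of 1 dpi were the closest together. The signal was higher than Ctrl by 3.87 at 1 dpi and by 2.48 at 3 dpi (SE 0.11, adjusted p = 2.21e-06), and it fell by 1.39 on the log2 scale from 1 to 3 dpi (adjusted p = 7.46e-05). The retained share, defined as the difference of 3 dpi from Ctrl as a percentage of the difference of 1 dpi from Ctrl, was 64.1% on the log2 scale (95% interval 58.5% to 69.8%). On the linear signal it was 33.8%, since a log2 scale gives less weight to the top of a large rise. Linear signal in a retained share means the multiple of the array's 75th percentile, not the signal before scaling. Both are given for each member. The other 2 probes of Cdkn1a went the same way with other sizes. A_55_P1976204 (chr17:29235299-29235358) lay between -3.66 and -3.51 in Ctrl, -1.13 and -1.02 at 1 dpi and -2.46 and -2.10 at 3 dpi, which is a change of 2.53 at 1 dpi and 1.30 at 3 dpi with 51.4% retained. A_55_P1986282 (chr17:29227986-29228045), the most upstream of the 3 and listed by the array files for a transcript that starts further upstream, lay between -6.97 and -5.91 in Ctrl, where 2 of 3 arrays were well above background. It lay between -0.73 and -0.59 at 1 dpi and between -2.11 and -2.06 at 3 dpi, a change of 5.70 and 4.26 with 74.7% retained on the measured means, which the dim Ctrl level makes less sure than for the other 2 probes. All 3 probes were called higher at 3 dpi against Ctrl and lower at 3 dpi against 1 dpi.

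Mdm2 encodes the ubiquitin ligase of the feedback loop. Its brightest probe (chr10:117126010-117126069, minus strand, mm9) had scaled log2 signals of 4.08, 3.96 and 3.93 in Ctrl, 5.66, 5.70 and 5.62 at 1 dpi and 4.62, 4.55 and 4.52 at 3 dpi. The groups did not overlap, and the 3 dpi arrays stood nearer to Ctrl than to 1 dpi. After a difference of 1.67 at 1 dpi, Mdm2 was 0.57 above Ctrl at 3 dpi (SE 0.07, adjusted p = 3.91e-04), which was under 2-fold and not called, and its change from 1 to 3 dpi was -1.10 (adjusted p = 2.81e-05). The retained share was 34.3% (26.1% to 42.2%), or 22.3% on the linear signal. A second probe, A_55_P2606086, starts at base 322 of its transcript and is placed over 2879 bases of the genome (chr10:117139375-117142253). It was at -0.70, -0.81 and -0.73 in Ctrl, 1.61, 1.73 and 1.59 at 1 dpi and 0.04, 0.22 and 0.17 at 3 dpi. This is a difference of 2.39 at 1 dpi and 0.89 at 3 dpi (adjusted p = 7.15e-05), with 37.2% retained and a change of -1.502 from 1 to 3 dpi. The 2 Mdm2 probes thus differed by 0.72 in size at 1 dpi and gave retained shares close to each other.

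Ccng1 encodes cyclin G1, which brings a phosphatase to MDM2 and so acts in the same loop. Its only probe (chr11:40562427-40562486, minus strand, mm9) read 1.29, 1.19 and 1.21 in Ctrl, 2.87, 2.93 and 2.96 at 1 dpi and 2.15, 2.49 and 2.47 at 3 dpi. No groups overlapped, and 3 dpi replicate 1 was the lowest of its group by 0.32. Ccng1 was 1.69 above Ctrl at 1 dpi and 1.14 at 3 dpi (SE 0.10, adjusted p = 8.62e-05). Its change between the times, -0.55, was under 2-fold and not called (adjusted p = 0.0029). With a rise at 1 dpi about as large as that of Mdm2, it kept 67.3% of it (55.6% to 79.7%), or 54.4% on the linear signal, and the 2 intervals did not overlap. Zmat3, or Wig-1, is an RNA-binding zinc finger protein that stabilizes the p53 transcript. Its probe (chr3:32233831-32233890, minus strand, mm9) read -2.75, -2.88 and -2.91 in Ctrl, 1.509, 1.504 and 1.522 at 1 dpi and 0.61, 0.89 and 0.60 at 3 dpi. Groups were far apart and the 1 dpi arrays were within 0.02 of each other. The gene was 4.36 above Ctrl at 1 dpi and 3.55 at 3 dpi (SE 0.09, adjusted p = 3.24e-07), the change between the times was -0.81 (adjusted p = 3.8e-04, not called), and the retained share of 81.5% (77.0% to 86.0%), or 55.2% on the linear signal, was the highest among the 9 members other than Eda2r.

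Phlda3 encodes a pleckstrin homology protein that competes with AKT for membrane lipids and so dampens survival signalling. Its probe (chr1:137665642-137665701, plus strand, mm9) read -1.78, -1.73 and -1.76 in Ctrl, 3.59, 3.55 and 3.60 at 1 dpi and 2.63, 2.42 and 2.36 at 3 dpi. The Ctrl and the 1 dpi arrays each lay within a narrow band and 3 dpi stood much closer to 1 dpi. Phlda3 was 5.34 above Ctrl at 1 dpi and 4.23 at 3 dpi (SE 0.08, adjusted p = 1.13e-07). This was the largest difference at 3 dpi among the brightest probes, with Eda2r left out because its Ctrl level is only bounded. Phlda3 changed by -1.11 between the times (adjusted p = 5.44e-05). It kept 79.2% of its rise (76.1% to 82.3%), or 45.0% on the linear signal, and its interval overlaps that of Zmat3. Zfp365 encodes a coiled-coil zinc finger protein tied to replication of fragile sites and genome stability. Its probe (chr10:67348918-67348977, minus strand, mm9) read -6.20, -5.81 and -5.83 in Ctrl, -0.41, -0.40 and -0.43 at 1 dpi and -2.33, -2.31 and -2.35 at 3 dpi. It was dim but well above background on all 9 arrays, and its replicates at 1 and 3 dpi were within 0.04 of each other. Before scaling its Ctrl signal was 14.2, 28.1 and 28.4. That of replicate 1 was close to the lowest signal still marked well above background there, which makes the differences from Ctrl less sure. Zfp365 was 5.54 above Ctrl at 1 dpi and 3.62 at 3 dpi (SE 0.11, adjusted p = 3.92e-07), and its change of -1.92 between the times (adjusted p = 2.06e-05) was the largest of the 10. The retained share was 65.4% (61.5% to 69.3%) but 24.8% on the linear signal.

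Sesn2 encodes sestrin 2, a stress protein that restrains the growth kinase mTORC1 and limits oxidative damage. Its probe (chr4:132048858-132048917, minus strand, mm9) read 0.20, 0.21 and 0.27 in Ctrl, 1.88, 1.80 and 1.77 at 1 dpi and 0.91, 0.68 and 0.66 at 3 dpi. The groups did not overlap, and the 3 dpi arrays were nearer to Ctrl. The gene was 1.59 above Ctrl at 1 dpi and 0.52 at 3 dpi (SE 0.08, adjusted p = 0.00203, not called), and it fell by 1.06 on the log2 scale between the times (adjusted p = 7.6e-05). It kept 32.9% of its rise (21.9% to 43.4%), or 21.96% on the linear signal, much like Mdm2, whose interval overlaps. Eda2r encodes a death domain-free receptor of the TNF receptor family for ectodysplasin A2. Its brightest probe (chrX:94529458-94529517, minus strand, mm9) was not well above background on any Ctrl array, where it read -7.56, -7.66 and -7.07, and well above it on all others, at -2.14, -2.23 and -2.19 at 1 dpi and -3.68, -3.50 and -3.52 at 3 dpi. Against such a group only a lower bound can be given, in which each Ctrl value is raised to the lowest signal that was still well above background on that array if it lies under it. Eda2r was at least 21.2-fold higher at 1 dpi and at least 8.13-fold higher at 3 dpi than in Ctrl, with no test printed since passing the filter had this difference built in. With normexp background correction, which raises low signals, the log2 differences were smaller, 2.58 and 1.36. From 1 to 3 dpi, both well above background, it fell by 1.38 (adjusted p = 2.91e-04). The measured means gave a retained share of 73.6%, or 36.7% on the linear signal, and the bounds 68.6%. A second probe, A_52_P207163 (chrX:94533873-94533932), read -8.45, -8.93 and -9.06 in Ctrl, where it was likewise dim, -3.39, -3.45 and -3.33 at 1 dpi and -5.30, -4.87 and -5.48 at 3 dpi. It was at least 9.21-fold higher at 1 dpi and at least 2.60-fold higher at 3 dpi. Its retained share was 66.3% on measured means and 43.0% on the bounds, so that the share of Eda2r is not known closely. The third probe, A_66_P122860, was not well above background on any array and was not tested.

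Trp53inp1 encodes a nuclear stress protein that binds p53 and the kinase HIPK2 and also takes part in autophagy. Its brightest probe (chr4:11101174-11101233, plus strand, mm9) read 1.64, 1.67 and 1.61 in Ctrl, 2.42, 2.43 and 2.48 at 1 dpi and 1.84, 2.12 and 2.06 at 3 dpi. The groups did not overlap, and 3 dpi replicate 1 was the closest to Ctrl. On this probe it was under 2-fold at 1 dpi, at 0.80, and it was 0.36 above Ctrl at 3 dpi (SE 0.08, adjusted p = 0.0101, not called). Its change between the times was -0.44 (adjusted p = 0.00343, not called), and its retained share was 45.5%, or 39.3% on the linear signal, with the widest interval of the members, 24.4% to 66.1%. The second probe, A_55_P1973906 (chr4:11092530-11092589), lies nearer to the 5′ end of the transcript, at base 659 against base 5041. It read -2.83, -2.81 and -2.68 in Ctrl, -0.914, -0.998 and -1.183 at 1 dpi and -2.29, -2.30 and -2.14 at 3 dpi. This was 1.74 above Ctrl at 1 dpi and 0.53 at 3 dpi (adjusted p = 0.00318), with a fall of 1.21 between the times that was called (adjusted p = 6.81e-05) and 30.3% retained. The 2 probes therefore differ in the call for the fall. The sequences of the second probes of Mdm2 and Trp53inp1, which gave larger changes at 1 dpi than the brightest probe of their gene, are shown to make clear what was measured, with no capitals since the whole probe hybridizes.
Mdm2 A_55_P2606086: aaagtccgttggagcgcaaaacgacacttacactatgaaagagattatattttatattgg
Trp53inp1 A_55_P1973906: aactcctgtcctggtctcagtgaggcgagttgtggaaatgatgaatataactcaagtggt

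Aen encodes a nuclease that promotes apoptosis and is known to be induced by p53. Its brightest probe (chr7:86053207-86053266, plus strand, mm9) read 2.74, 2.65 and 2.62 in Ctrl, 3.81, 3.86 and 3.82 at 1 dpi and 3.00, 2.96 and 2.90 at 3 dpi. It came closest to its Ctrl level of all members, with the lowest 3 dpi array 0.16 above the highest Ctrl array. Aen was 1.17 above Ctrl at 1 dpi and 0.29 at 3 dpi (SE 0.06, adjusted p = 0.00918, not called), and its change of -0.88 between the times was not called either (adjusted p = 5.51e-05). The retained share was 24.6% (12.97% to 35.50%), or 17.7% on the linear signal. After scaling to the array median the difference at 1 dpi was 0.85, under 2-fold. Of its other 4 probes, A_55_P2141860, A_52_P443705 and A_65_P02117 were 1.04 to 1.17 above Ctrl at 1 dpi and retained 19.2% to 33.7%, though A_65_P02117 overlapped Ctrl at 3 dpi (0.28, adjusted p = 0.124). A_55_P2720760 (chr7:86044485-86044544), which lies further upstream and is listed for another transcript, was at 0.18 at 1 dpi and -0.15 at 3 dpi against Ctrl (adjusted p = 0.0925), and no share was formed from it.

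**Figure D2:**
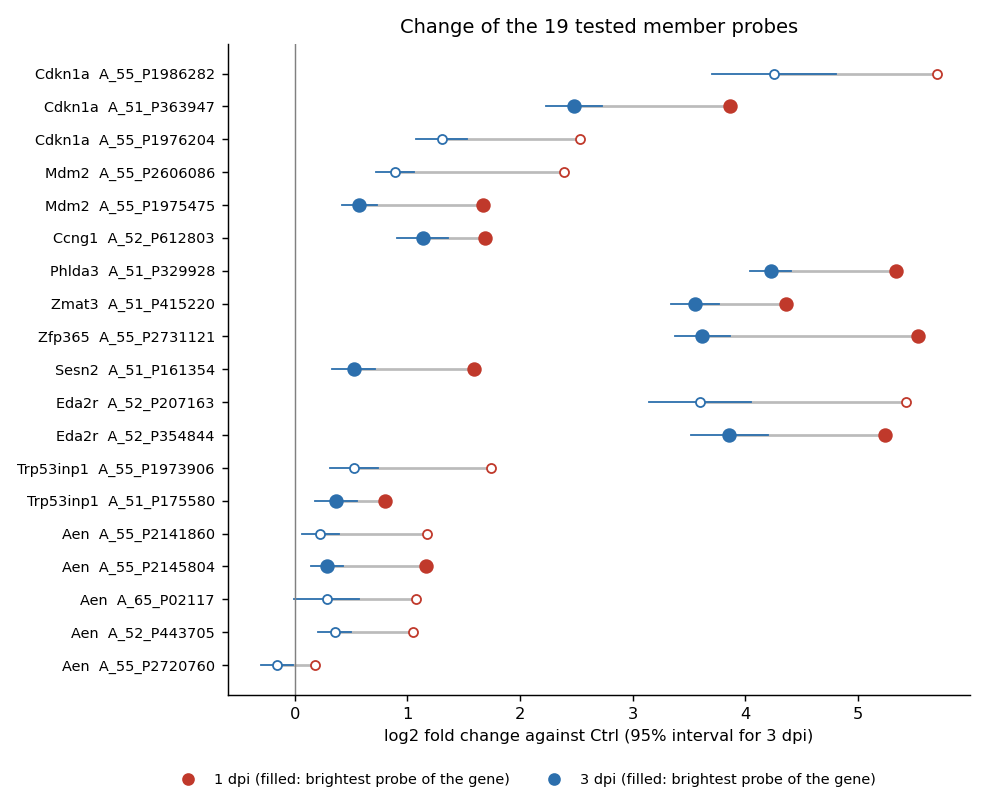
Log2 fold change against Ctrl (x axis) at 1 dpi (red) and 3 dpi (blue) for each of the 19 member probes tested (y axis), filled for the brightest probe of the gene, with 95% intervals for 3 dpi. The blue point lies left of the red one for every probe, and the probes of Cdkn1a, Mdm2, Trp53inp1 and Aen differ in size.

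The retained shares thus ran from 24.6% for Aen to 81.5% for Zmat3 with a median of 64.7% on the log2 scale, and from 17.7% to 55.2% with a median of 35.2% on the linear signal. Eda2r, whose Ctrl level is only bounded, was left out of the order, and the median of the other 9 was 64.1% on the log2 scale. On that scale Zmat3 and Phlda3 came first, Ccng1, Zfp365 and Cdkn1a followed within 3.2 points of each other, and Trp53inp1, Mdm2, Sesn2 and Aen came last. The order on the linear signal was another, with Ccng1 (54.4%) over Phlda3 (45.0%), Trp53inp1 (39.3%) over Cdkn1a (33.8%), and Zfp365 (24.8%) next to Mdm2 (22.3%). Both orders rest on the brightest probe of each gene. The second probe of Trp53inp1 retained 30.3% on the log2 scale and 18.8% on the linear signal, under Mdm2 on both. Intervals of the brightest probes on the log2 scale overlapped between neighbours. That of Ccng1 also overlapped those of Phlda3 and Zmat3, and that of Trp53inp1 those of Cdkn1a, Zfp365 and Ccng1. The intervals of Mdm2, Sesn2 and Aen lay wholly under those of Cdkn1a, Zfp365, Ccng1, Phlda3 and Zmat3. On other probes this did not always hold. The interval of Cdkn1a A_55_P1976204 started at 43.6%, while those of Aen A_52_P443705 and A_65_P02117 ended at 45.6% and 49.3%. On single 3 dpi arrays the median share was 59.9%, 63.9% and 63.2%. With the slide as a block, and within the slide of 8 arrays without Ctrl replicate 1, it was 64.7% and the same counts of members were called, 6 at 3 dpi against Ctrl and 6 at 3 dpi against 1 dpi. With normexp background correction it was 53.1%. The place of Zfp365 in the order did not hold with normexp, since over the 2 scalings tried with it the share went down to 52.7% at the lowest (52.6% for Eda2r), under Cdkn1a at 65.6% and Ccng1 at 65.2% or more, while Zmat3 kept at least 80.4% and Phlda3 at least 78.1% under every scaling.

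**Figure D3:**
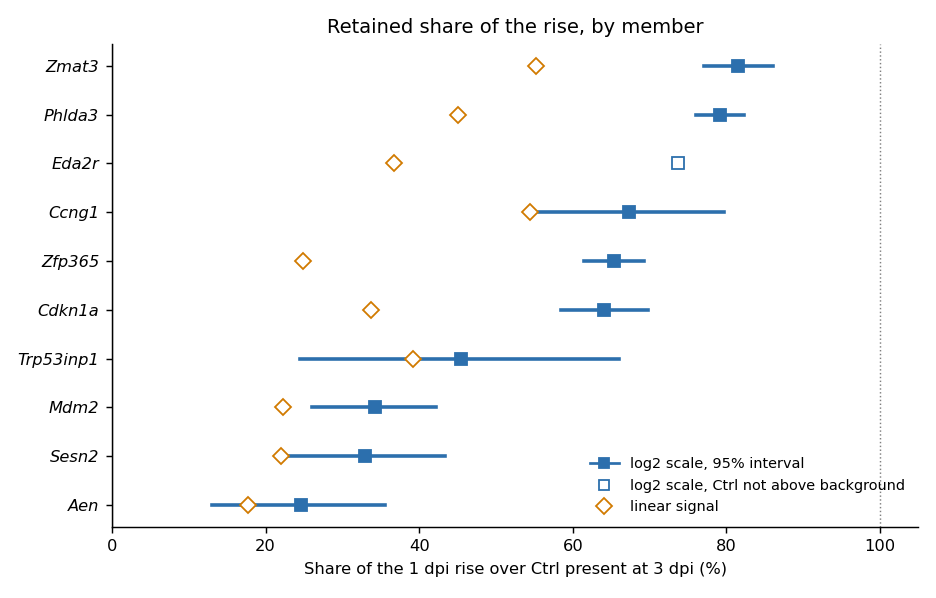
Share of the difference between 1 dpi and Ctrl that was present at 3 dpi (x axis, percent) for each member (y axis), on the log2 scale with its 95% interval (squares, open and without interval for Eda2r, whose Ctrl arrays were not well above background) and on the linear signal (diamonds). Aen, Sesn2 and Mdm2 are at the low end and Zmat3 and Phlda3 at the high end on the log2 scale.

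The deposited log2 table holds 1 value per gene name and follows a probe other than the brightest for Cdkn1a (A_55_P1986282), Mdm2 (A_55_P2606086), Trp53inp1 (A_55_P1973906) and Aen (A_55_P2141860). In it Cdkn1a was 5.36 above Ctrl at 1 dpi and 3.97 at 3 dpi (74.0% retained), Mdm2 2.41 and 0.89 (36.9%), Trp53inp1 1.61 and 0.47 (28.9%), and Aen 1.11 and 0.19 (16.8%). For the other 6 members the retained share in that table was 65.9% for Ccng1, 79.1% for Phlda3, 80.6% for Zmat3, 64.2% for Zfp365, 32.6% for Sesn2 and 73.8% for Eda2r. All 10 members were again lower at 3 dpi than at 1 dpi there, 7 of them with a call, Trp53inp1 being the added one. Over that whole table, which holds 27275 gene names, 1142 were called lower between the times.

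Other genes of the pathway were taken from lists and are given by counts and medians, beside the median of all genes, which was 0.25 at 1 dpi against Ctrl, 0.11 at 3 dpi against Ctrl and -0.11 between the times. Among 21 genes of p53 and its regulators, limma called 0 against Ctrl at either time, with 7 higher and 7 lower at an unadjusted p under 0.05 at 1 dpi and 2 and 8 at 3 dpi, and the medians were 0.00 and -0.14. Trp53 itself was at -0.09 at 1 dpi and -0.78 at 3 dpi (adjusted p = 2.2e-04, under 2-fold). Mdm4, the partner of Mdm2, was at 0.77 and -0.18, and the p53 phosphatase gene Ppm1d at -0.64 and -0.33. Chek1, at -0.98 at 1 dpi, was just short of 2-fold, and it was called lower with quantile normalization, after scaling to the array median and relative to the median of all probes, recounts made after seeing the data. Between the times Trp63 (-1.12) and Crebbp (-1.05) were called lower, and neither after scaling to the array median. These values are those of the brightest probe of each gene. On other probes the change at 1 dpi reached 1.48 for Mdm4, -1.20 for Atm and -1.71 for Atr. Some other probes went the opposite way, with 0.14 for Chek1 and 0.22 for Ppm1d at 1 dpi and 0.38 for Mdm4 at 3 dpi. Between the times another probe was at 0.31 for Trp63, and other probes of Crebbp were at 0.01 and -1.31.

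Of 21 other p53 targets of growth and stress, 10 were called higher and 0 lower at 1 dpi (median 0.61), 6 and 0 at 3 dpi (median 0.24), and 1 higher and 5 lower between the times (median -0.43). Ak1, an adenylate kinase, was 3.43 above Ctrl at 1 dpi and 1.99 at 3 dpi, and Psrc1 2.59 and 1.07. The secreted stress factor Gdf15 was at 3.07 and 2.65, and the sulfatase gene Sulf2 at 2.59 and 2.41, neither called between the times. Some genes went the other way, among them Pltp, a phospholipid transfer protein gene, with 0.49 at 1 dpi and 2.27 at 3 dpi, and Ephx1, an epoxide hydrolase gene, with 1.36 and 2.12, of which Pltp was called between the times. Of 17 targets that act in cell death, 5 were called higher and 0 lower at 1 dpi (median 0.82), 1 and 0 at 3 dpi (median 0.33) and 0 and 2 between the times (median -0.32). Bax was at 2.44 and 0.92, Bbc3 at 2.27 and 0.72, Pmaip1 at 1.52 and 0.82 and the death receptor gene Tnfrsf10b at 2.03 and 1.15. Of 12 targets in DNA repair and nucleotide supply, 2 were called higher at 1 dpi (Rad51c, 1.61, and Ercc5, 1.31) and 0 lower, with a median of -0.04. At 3 dpi limma called 0 of them against Ctrl, with 2 higher and 4 lower at an unadjusted p under 0.05 and a median of -0.12, and between the times 1 was called lower (Rad51c, -1.30; median -0.16). In recounts after seeing the data, scaling to the array median gave 8 higher and 0 lower growth and stress targets at 1 dpi, 4 and 2 cell death targets (Apaf1 and Dram1 lower) and 1 and 1 repair targets (Rev3l lower). Between the times it gave 2 higher and 2 lower cell death targets.

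Cell cycle genes that p21 is known to repress, such as Ccnb1, Cdk1, Birc5 and Mki67, were listed as 25 genes, all well above background on every array. Limma called 0 of 25 in each comparison, and at an unadjusted p under 0.05 there were 4 higher and 11 lower at 1 dpi, 7 and 0 at 3 dpi, and 16 and 3 between the times. Their medians were -0.17 at 1 dpi and 0.10 at 3 dpi against Ctrl and 0.38 between the times. These counts depended on the scaling, as calls recounted after seeing the data show. After scaling to the array median 3 genes were called lower at 1 dpi (Aurkb, Cenpf and Ect2) and 2 higher between the times (Aurkb and Ect2), and relative to the median of all probes 1 lower at 1 dpi (Aurkb) and 1 higher between the times (Ect2). The bearing of Cdkn1a on these genes was not tested. Among 16 paralogs and partners of the members, 2 were called higher (Isg20, a relative of Aen, 1.37, and Zmat4, 1.27) and 1 lower (Phlda2) at 1 dpi, 1 higher (Cdkn1c, 1.04) and 1 lower (Phlda2) at 3 dpi, and 2 and 2 between the times, with medians of -0.19, -0.01 and 0.19. Under the 3 other scalings 1 or 2 of them were called higher and 2 or 3 lower at 1 dpi. The call of Cdkn1c at 3 dpi was lost after scaling to the array median and relative to the median of all probes. Between the times Zmat4 was called lower under none of the 3. Phlda2 passed the filter only through Ctrl, so its lower calls were built in. Edar, called higher between the times (1.89), was not well above background on any 1 dpi array. It passed only through Ctrl and 3 dpi, so its call was part built in. In these promoters, a half-site or a full site was found in 4 and 0 of 20 regulators, 5 and 3 of 21 growth and stress targets, 1 and 0 of 7 repair targets, 4 and 2 of 14 cell death targets, 3 and 2 of 20 cell cycle genes and 0 and 1 of 12 paralogs and partners.

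**Figure D4:**
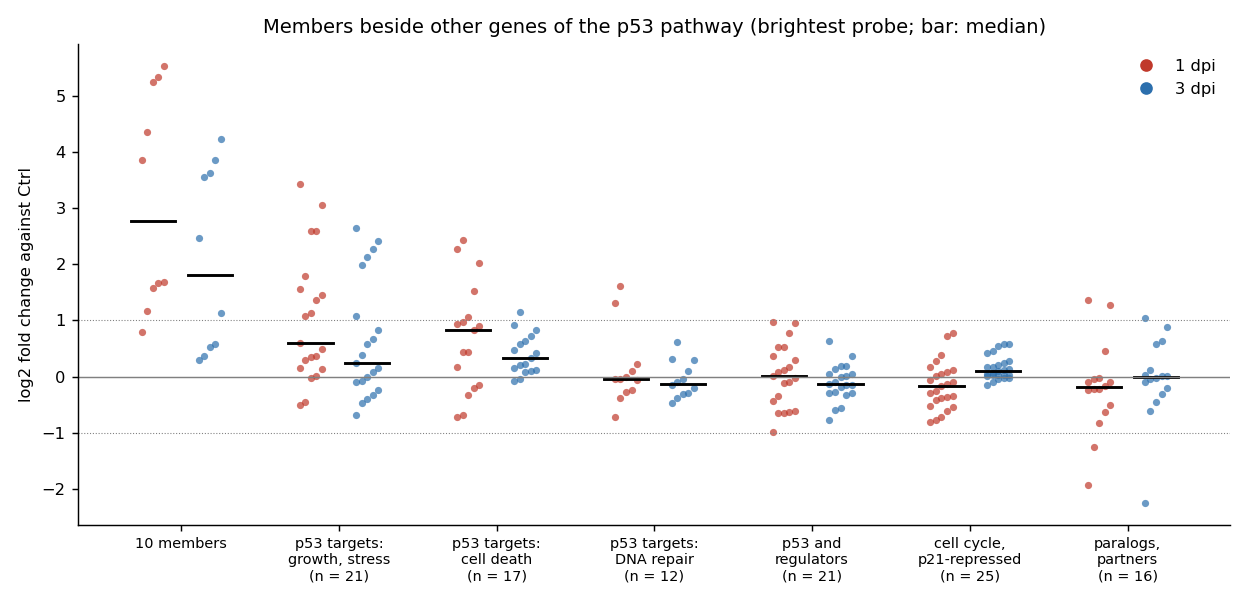
Log2 fold change against Ctrl (y axis) at 1 dpi (red) and 3 dpi (blue) of the genes of each list (x axis, brightest probe), with the list's median as a bar and dotted lines at a 2-fold change. The members have medians of 2.78 and 1.81, and the cell cycle genes have medians of -0.17 and 0.10.

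The genes whose pattern over the 9 arrays was most like the mean of the members, among 3504 probes well above background on all arrays with a rise of at least 2-fold at 1 dpi, were BB189136, Pvt1, Il1b, Lama5 and Fosl1, each with a Pearson r of 0.998 to 0.999. The arrays fall into 3 groups, so r reflects the group means above all. Pvt1 was 2.58 above Ctrl at 1 dpi and 1.70 at 3 dpi with 65.8% retained, and the share was 65.7% to 70.0% for the other 4. Among the members themselves, r with the mean of the other 9 ran from 0.88 for Aen to 0.998 for Zfp365.

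Markers of other marrow cells moved with the groups as well. In bulk samples such as these, fewer cells of a type and less RNA per cell cannot be told apart. Of 11 macrophage markers, 3 were called higher at 1 dpi and 9 at 3 dpi, with 0 called lower. Their summed signal, as multiples of the 75th percentile, was 64.5, 57.8 and 55.7 in Ctrl, 84.2, 79.6 and 83.8 at 1 dpi and 153, 150 and 148 at 3 dpi, Csf1r being the brightest, and the complement genes C1qa, C1qb and C1qc were 2.37 to 2.51 above Ctrl at 3 dpi. Between the times, 6 of these markers were called higher and 0 lower, while 6 of 10 members were called lower. Of 10 stromal markers, 7 were called higher at 1 dpi and 6 at 3 dpi, and 0 lower. Their summed signal was 10.3, 9.92 and 10.4 in Ctrl, 51.1, 44.0 and 47.9 at 1 dpi and 93.0, 84.8 and 91.3 at 3 dpi, led by Cxcl12. Of 11 B-cell precursor markers, 10 were called lower and 0 higher at both times. Rag1, 1 of the 10, passed the filter only through Ctrl, so its lower calls were built in. The summed signal was 29.9, 27.7 and 28.4 in Ctrl, 6.068, 5.855 and 6.001 at 1 dpi and 5.98, 5.79 and 5.73 at 3 dpi, led by Cd79b. Of 10 erythroid markers, 7 were called lower and 2 higher at 1 dpi and 8 lower and 0 higher at 3 dpi. The 2 were the globin genes Hba-a1 and Hbb-b1, and Hba-a1 led the summed signal of 109, 88.9 and 91.9 in Ctrl, 247, 202 and 199 at 1 dpi and 35.9, 36.2 and 33.6 at 3 dpi.

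Of 8 endothelial markers, 4 were called higher at 1 dpi and 6 at 3 dpi, with medians of 0.89 and 1.76. The 10 neutrophil markers had 2 called higher at 1 dpi (S100a8, 1.14, and S100a9, 1.02; median 0.52) and 0 at 3 dpi (median 0.02, with 1 higher and 1 lower at an unadjusted p under 0.05 in limma). Between the times limma called 0 of them, with 1 higher and 8 lower at an unadjusted p under 0.05 and a median of -0.57. These changes depended on the scaling, since 0 were called in any comparison under the 3 other scalings, and with quantile normalization the median was -0.06 at 1 dpi and 0.01 between the times. Their summed signal was 1050, 1112 and 1099 in Ctrl, 1866, 1739 and 1715 at 1 dpi and 1171, 1050 and 1112 at 3 dpi, led by Mpo. The 8 T and NK cell markers had 1 and 3 called higher (medians 0.56 and 0.59), the 6 dendritic cell markers 1 higher and 2 lower, then 0 and 1 (medians 0.48 and 0.13), and the 6 stem and progenitor markers 2 and 3 called lower (medians -0.45 and -0.97). For the 15 megakaryocyte markers, limma called 0 against Ctrl at both times and 0 between them, with 4 higher and 5 lower at an unadjusted p under 0.05 at 1 dpi and 6 and 2 at 3 dpi. The medians of the changes of these genes were -0.01 and 0.06, while the median signal of the list on each array, given above, was higher after IR than in Ctrl. After scaling to the array median and relative to the median of all probes, Gp1ba was called lower at 1 dpi, and Gp1ba and Gp6 higher between the times. Under the 3 other scalings no count against Ctrl of the macrophage, stromal, B-cell precursor or erythroid lists changed by more than 1, while the 1 dpi call among T and NK cell markers and the higher call among dendritic cell markers were lost and 2 to 4 endothelial markers were called higher at 1 dpi, with 1 called lower. The part of these other cell types in the values of the members was not tested.

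**Figure D5:**
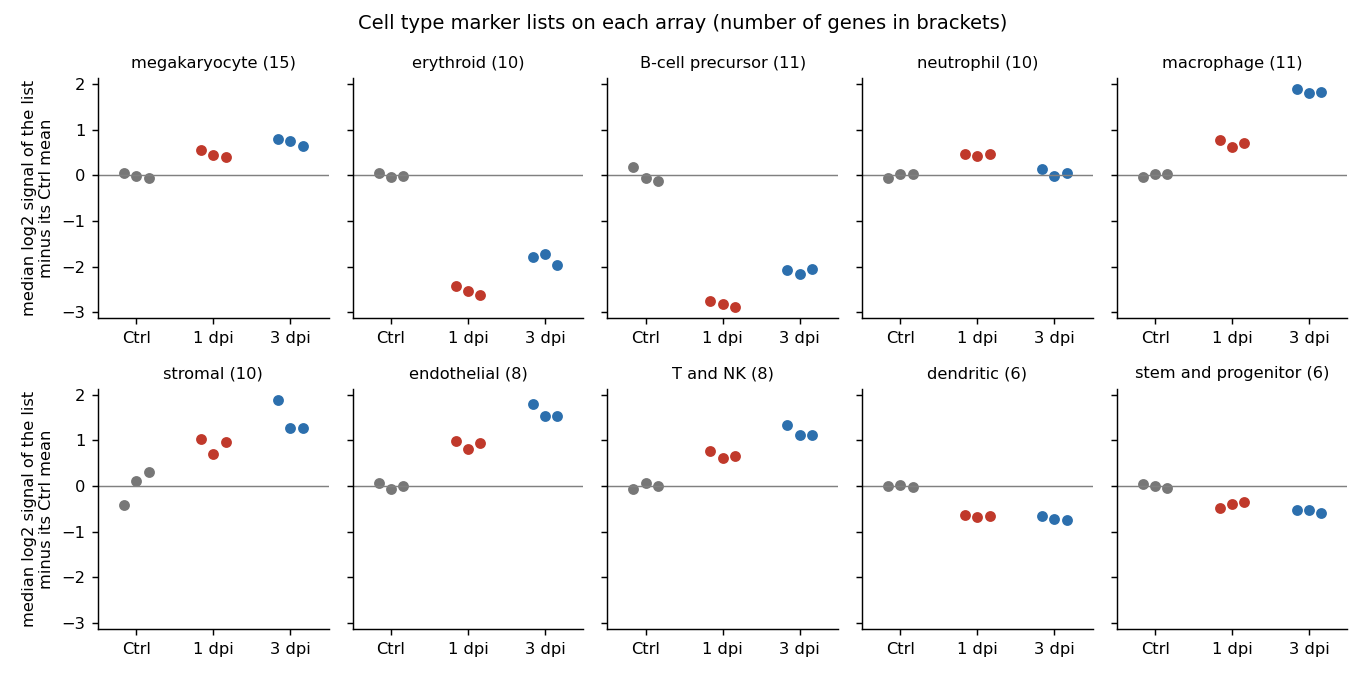
Median scaled log2 signal of each cell type marker list on each array minus the mean of its Ctrl medians (y axis), for Ctrl, 1 dpi and 3 dpi (x axis). Megakaryocyte markers lie less than 1 above their Ctrl level, B-cell precursor and erythroid markers lie under it, and macrophage and stromal markers lie above it after IR.

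With 3 arrays on each side, the lowest two-sided p of an exact permutation test is 0.10, so the tests rest on the moderated variance of limma over all probes, and 3 arrays per group limit the precision of each share. Probe signals are relative, so that the brightest gene of a list is that of the highest signal and not of the most RNA, and neither protein nor cell number was measured on these arrays.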

How the data were processed

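RNA of mMKs was measured on Agilent 1-colour arrays, 9 arrays in 3 groups of 3, grouped by the labels. For every array the authors gave spot intensity values from Agilent Feature Extraction 10.7.1.1 on a linear scale, background-corrected. The deposited values on the log2 scale, by gene name, had nearly equal quartiles on all arrays, with medians between 5.79 and 5.87, and how they were made is not given in the sources used here. The methods describe an Affymetrix chip, which was not taken as the source of these files.

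Control spots and outlier spots were left out and spots of 1 probe were averaged, and 20 probes with no spot left on an array were removed, leaving 56585. Of the 56605 probes, 32994 were named through RefSeq (GRCm38.p6) and 23611 kept the name in the file. Probes were placed by the coordinates printed in the files (mm9), for which no exon or UTR annotation was used here. The processed signal was taken as log2 minus the 75th percentile of its array, and 44300 probes were tested, each marked well above background on the 3 arrays of 1 group or more. All 9 arrays were fitted together with lmFit and eBayes of limma 3.58.1 (R 4.3.3, data.table, version 1.17.8), with Benjamini-Hochberg adjustment over all probes tested, and calls needed an adjusted p under 0.05 and at least 2-fold. The procedure was tested on simulated data. A gene was represented by its probe with the highest mean over 9 arrays. The interval of a retained share is Fieller's, from the moderated variance. Figures were drawn with matplotlib 3.10.9 (Python 3.11.15).

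All members were named with every probe, all genes on the list of p53 and its regulators could be named, and of each other list up to 4 called genes with the largest change in a comparison. The defining or brightest markers of a cell type and the genes called only under another scaling were named outside it, after their values were seen. The 5 genes most like the members were those with the highest r. The megakaryocyte list held 1 more gene, which is not reported here. The members and lists were chosen with earlier results of these data known. Alternatives were quantile normalization, the array median, changes relative to the median of all probes, normexp background correction with an offset of 50, other filters, 1 probe per gene, the deposited values, no minimum fold, an intensity trend, the replicate number or the slide as a block, each array left out and the methods' t-test.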

Additional observations from a re-analysis of the deposited data

Results flagged for a closer look

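The direct test of 3 dpi against 1 dpi gave an adjusted p under 0.05 for all 10 members. It did so for 20438 of all 44300 probes as well, 12177 of them lower. For 6 of them the change was also at least 2-fold, all lower, beside 4.85% of all genes called lower. On the log2 scale the difference was -1.39 for Cdkn1a, -1.10 for Mdm2, -1.11 for Phlda3, -1.92 for Zfp365, -1.06 for Sesn2 and -1.38 for Eda2r. In each of these 6 all 3 arrays at 3 dpi were under all 3 arrays at 1 dpi in scaled signal, a separation not counted over all genes. Before scaling this held for Cdkn1a, Zfp365 and Eda2r only. After scaling to the array median Mdm2 (-0.91), Phlda3 (-0.92) and Sesn2 (-0.87) fell short of 2-fold. The adjusted p was then 0.0972 for Ccng1 and 0.185 for Trp53inp1. The test shares the 1 dpi arrays with the comparison by which the members were chosen.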

How the results depend on the processing

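In the direction of change, 0 of 239 values per comparison were reversed for the members over all alternatives. At 3 dpi against 1 dpi, 3 members were called after scaling to the array median and 3 relative to the median of all probes, in place of 6, and 10 with no minimum fold. With quantile normalization 5 were called and with normexp and quantile normalization 4. Of all 44300 probes, 2229 were called lower between the times, 1266 after scaling to the array median and 1470 relative to the median. This count was 12177 with no minimum fold, 1484 with quantile normalization and 714 with normexp and quantile normalization. At 3 dpi against Ctrl, 10 members were called with no minimum fold in place of 6, beside 7083 probes called higher in place of 2917. The median retained share was 53.1% with normexp and the 75th percentile and 55.1% with normexp and quantile normalization, beside 64.7%. When each array was left out in turn, it ranged from 63.5% to 64.9%. Probes called were 6467 at 1 dpi against Ctrl, 3739 at 3 dpi against Ctrl and 3891 at 3 dpi against 1 dpi. In the same order they were 3818, 1648 and 2307 with normexp and the 75th percentile, 2199, 1449 and 1417 with normexp and quantile normalization, and 24733, 14563 and 20438 with no minimum fold. They were 6931 at 3 dpi against 1 dpi with no filter, 2359 at 3 dpi against Ctrl with probes well above background on all 9 arrays, 2573 at 3 dpi against 1 dpi with 1 probe per gene, and 3808 at 1 dpi against Ctrl in the deposited table. The cause of these shifts was not tested. Higher calls made up 66.6% of calls at 1 dpi with normexp and quantile normalization and 54.3% relative to the median of all probes. They made up 88.3% with normexp and the 75th percentile and 83.2% with no filter. At 3 dpi against Ctrl the share was 48.6% with no minimum fold. Between the times higher calls made up 20.8% with normexp, 24.99% with no filter and 59.0% relative to the median. The methods' t-test with the same minimum fold called 5741, 3676 and 4018 probes, and 4969, 3185 and 3719 after Benjamini-Hochberg adjustment. Samples with the same replicate number did not deviate together (r from -0.09 to 0.13), and the replicate block gave 6220, 3627 and 3773 calls. The slide as a block gave 5283, 3451 and 4154. Without Ctrl replicate 1 the calls were 5350, 3509 and 4250. Signal over background limits the Ctrl level of Eda2r, which is known only as a bound.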
